A study of Homo sapiens with 8 samples.

Results

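Lung and foregut lineage genes were followed through 8 RNA-seq libraries of the human lung cancer lines H1975 and HCC44. The set held 9 genes of the 61228 gene names in the count tables, picked by symbol: the alveolar factor NKX2-1 with its textbook target SFTPB, the foregut factors FOXA1, FOXA2, GATA6 and HNF4A, the airway and squamous factors SOX2 and TP63, and the epithelial factor KLF5. All 9 were present, and 7 passed the filter on low counts. SFTPB and HNF4A did not pass it and are given as counts.

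H1975 is an established lung adenocarcinoma line, and HCC44 is an established non-small cell lung cancer line. Both lines carried the genotype label WT and were grown in RPMI-1640 medium. They received DMSO, the solvent control, or ACBI1 for 96 hours, with 2 replicates in each of the 4 groups. ACBI1 is a bifunctional compound that brings SMARCA2, SMARCA4 and PBRM1, subunits of the SWI/SNF chromatin remodelling complexes, to the VHL ubiquitin ligase for degradation. The labels give its concentration as 1 mM, far above what is usual for a degrader, so the unit is uncertain. The compound acts on proteins, so RNA counts do not check its action. Every result for a line rests on that 1 line, and nothing in the labels says that the replicates came from separate cultures, so p-values measure the spread between these libraries, which may be technical.

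NKX2-1 is the homeodomain factor that specifies lung epithelium and drives surfactant genes in alveolar type II cells. FOXA1 and FOXA2 are forkhead factors that can bind closed chromatin in foregut endoderm, where they act beside GATA6 and, in liver and gut, HNF4A. SOX2 marks the proximal airway, TP63 the basal and squamous cells, and KLF5 is a zinc finger factor of many epithelia. Adenocarcinomas usually keep part of the alveolar programme, and squamous carcinomas keep SOX2 and TP63.

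Sequences before the start sites of 4 members are shown first. NKX2-1 and TP63 are shown because they differed most between the lines, SFTPB as the target of NKX2-1, and FOXA1 because it moved under ACBI1. RefSeq sequences of build GRCh38.p14 were found for 8 of the 9 members. FOXA2 was not among them. Each stretch runs 5′ to 3′ on the gene's strand, within the 250 bases before a RefSeq start. It goes only as far as the first annotated exon base of the gene met in that window. The SFTPB, NKX2-1 and FOXA1 stretches lie inside the annotated span of their gene, before an inner start, and not upstream of the whole gene. The TP63 stretch lies before the annotated span. Where 2 starts were listed, the one with more matches is shown. Capitals mark matches, on either strand, to TGTTTG or TGTTTAC, cores read by FOXA factors, or to CAAGNG, the core read by NKX2-1.
SFTPB, chr2:85668252-85668449, minus strand, ending 52 bases before the start: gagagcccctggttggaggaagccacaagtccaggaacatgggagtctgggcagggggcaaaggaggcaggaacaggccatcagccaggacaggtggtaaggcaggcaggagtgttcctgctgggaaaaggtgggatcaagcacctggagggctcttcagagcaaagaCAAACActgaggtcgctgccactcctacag
NKX2-1, chr14:36519694-36519806, minus strand, ending 137 bases before the start: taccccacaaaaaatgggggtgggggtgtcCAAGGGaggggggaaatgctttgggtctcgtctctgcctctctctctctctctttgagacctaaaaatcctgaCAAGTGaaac
FOXA1, chr14:37595349-37595499, minus strand, ending 99 bases before the start: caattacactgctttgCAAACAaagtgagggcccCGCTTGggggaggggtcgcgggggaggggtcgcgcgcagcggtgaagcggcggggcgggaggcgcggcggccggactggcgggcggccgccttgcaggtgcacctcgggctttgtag
TP63, chr3:189631139-189631388, plus strand, ending at the start: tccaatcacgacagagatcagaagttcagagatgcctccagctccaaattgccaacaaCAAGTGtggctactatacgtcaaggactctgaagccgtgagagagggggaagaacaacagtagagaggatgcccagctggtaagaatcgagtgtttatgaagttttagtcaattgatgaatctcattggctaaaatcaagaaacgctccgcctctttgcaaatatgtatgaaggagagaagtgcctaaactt

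The SFTPB stretch held 1 match to TGTTTG, 82 to 77 bases before the start, and no match to CAAGNG. The NKX2-1 stretch held 2 matches to CAAGNG, the motif of its own protein, and its whole window of 250 bases also held 1 match to TGTTTAC, 130 to 124 bases before the start. The FOXA1 stretch held 1 match to TGTTTG, 234 to 229 bases before the start, and 1 to CAAGNG, and its whole window of 250 bases held 3 of the latter. The TP63 stretch held 1 match to CAAGNG and none to the FOXA cores. Of the members not shown, GATA6, KLF5 and HNF4A each had 1 match to TGTTTG, and SOX2 had none. These lay 115 to 110, 14 to 9 and 126 to 121 bases before a start. Such matches are common: of 35116 promoter windows of 250 bases, 12.8% held TGTTTG, 2.98% TGTTTAC and 36.6% CAAGNG, so a match is a description of the letters and no sign of binding.

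Depth was even, with 62467286 to 70455517 reads assigned to genes per library. Levels are given as CPM, a gene's count over the library's total scaled by edgeR's TMM factors. Across all tested genes, log2 levels correlated at 0.9960 to 0.9975 between replicates, at 0.9758 to 0.9836 between treatments of the same line and at 0.8834 to 0.8989 between the lines. Differences were tested with edgeR's quasi-likelihood test over 21307 genes, and a gene was called at a Benjamini-Hochberg adjusted p under 0.05. Where groups or lines are said not to overlap, 2 libraries stand against 2. That describes the values and is no support beside the test, and its share among all tested genes was not counted. Under library totals in place of TMM scaling, the median log2 fold change of all tested genes moved from -0.01 to 0.18 for ACBI1 in H1975 and from -0.08 to -0.20 between the lines. The share of calls that were higher then moved from 46.6% to 72.3% in H1975, from 50% to 60.5% in HCC44 and from 54.9% to 40.5% for the difference between the 2 responses. Among markers of immune cells, CD3E and MS4A1 had no read in any library and PTPRC reached at most 0.048 CPM, while CD14, a monocyte receptor, was at 2.56 and 2.01 CPM in H1975 under DMSO and at 3.43 and 3.32 CPM in HCC44.

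Under DMSO the 2 lines had different sets of lineage factors. H1975 had NKX2-1, FOXA2, GATA6, KLF5 and TP63 RNA, with little FOXA1. HCC44 had FOXA1, GATA6 and KLF5, less FOXA2, and almost no NKX2-1, SOX2 or TP63. All 7 tested members differed between the lines, 3 higher and 4 lower in HCC44, where 67.9% of all tested genes were called, 31.6% higher and 36.4% lower. A call between the lines was thus the usual outcome for a gene. NKX2-1, SOX2 and TP63 passed the filter only through H1975. Their direction was fixed by passing it, so the count of 4 lower is in part set by the filter. These are bulk libraries, in which fewer cells that express a gene and less RNA per cell cannot be told apart.

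**Figure D1:**
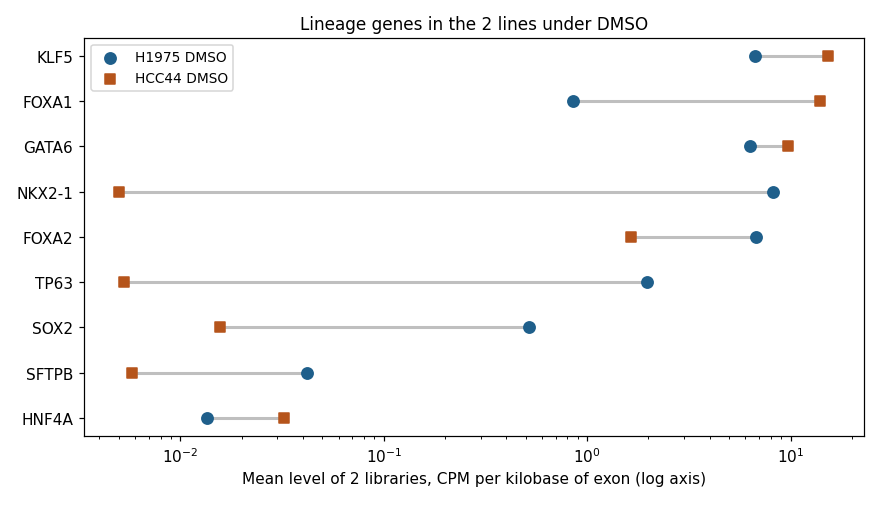
Mean level of each of the 9 lineage genes under DMSO in H1975 (circles) and HCC44 (squares), as CPM per kilobase of exon on a log axis, n = 2 libraries each. NKX2-1 and TP63 show the longest distances between the lines, with 8.18 against 0.00502 and 1.97 against 0.0053, while GATA6 is at 6.34 and 9.73.

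NKX2-1 lies on chromosome 14 (GRCh38, 36516392 to 36521149, minus strand). In H1975 under DMSO it had 1768 and 1644 counts, or 27.5 and 24.3 CPM. In HCC44 under DMSO it had 2 and 0 counts. The ratio of the summed counts, scaled for depth, was 1640 with a 95% exact counting interval of 453 to 13500, and the adjusted p of edgeR's quasi-likelihood test was 4.42e-09. Counting intervals here and below cover counting error only. Every H1975 library was far above every HCC44 library.

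SFTPB, the gene of surfactant protein B, lies on chromosome 2 (85657314 to 85668741, minus strand). It had 5 and 18 counts in H1975 under DMSO and 2 and 1 in HCC44 under DMSO. Its scaled ratio was 7.36, with a counting interval of 2.22 to 38.3, and the higher of the H1975 counts came from 1 library. It was called in most of the 8 alternatives that let it be tested. Most of these left out 1 library, and the gene passed their filter through H1975 DMSO replicate 2, where it was highest. Calls made under such a filter are therefore no support for a difference. SFTPB was also called with no filter, on the same few counts. SFTPB thus stood at 0.172 ± 0.13 CPM (SD, n = 2) in a line with NKX2-1 at 25.9 ± 2.2 CPM (SD, n = 2). The other surfactant genes were low too. SFTPA1 had no read in any library, which allows up to 3 counts in each, and SFTPC, SFTPD and SFTPA2 were at or below 0.0931 CPM. That highest value was SFTPD in H1975 ACBI1 replicate 1, a library with SFTPB at 0.0665 CPM.

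SFTA3 is the neighbour of NKX2-1, on the same strand and 2563 bases away. It had 306 and 340 counts in H1975 under DMSO and none in any of the 4 HCC44 libraries, a count that allows up to 3 per library. NKX2-1-AS1, the antisense gene that shares 402 exon bases with NKX2-1, had 39 and 37 counts in H1975 under DMSO and 0 and 0 in HCC44. Reads of the shared bases cannot be given to a strand here, because the strand setting of the counting is not given in the sources used here. Both neighbours followed the line difference of NKX2-1. They were chosen by position and, like the other neighbours named below, after their values were seen.

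The forkhead genes went in opposite directions. FOXA1 (chromosome 14, 37589984 to 37596059, minus strand) had 3.88 and 2.91 CPM in H1975 under DMSO and 55.8 and 55.1 CPM in HCC44. It was 16.3-fold higher in HCC44 (log2 difference 4.03 ± 0.24, SE, edgeR adjusted p 5.23e-07). FOXA2 (chromosome 20, 22581005 to 22585455, minus strand) had 18.8 and 16.2 CPM in H1975 and 3.75 and 4.76 CPM in HCC44. It was 4.11-fold lower in HCC44 (log2 difference -2.04 ± 0.29, SE, edgeR adjusted p 0.000133). For neither gene did the lines overlap. FOXA3, the remaining family member, was at 0.248 and 0.222 CPM in H1975 under DMSO and at 10.3 and 9.65 CPM in HCC44, so HCC44 had more of 2 FOXA genes and less of the other.

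GATA6 (chromosome 18, 22169443 to 22202528, plus strand) had 21.9 and 28.1 CPM in H1975 under DMSO and 37.3 and 39.5 CPM in HCC44. The difference, 1.53-fold higher in HCC44 (log2 0.62 ± 0.17, SE, edgeR adjusted p 0.00825), was the smallest among the tested members. Without H1975 DMSO replicate 1 it was 0.44 and no longer called (adjusted p 0.0696, with a range of 6.73e-06 to 0.0696 over 16 alternatives). KLF5 (chromosome 13, 73054976 to 73077542, plus strand) had 26.4 and 25.7 CPM in H1975 under DMSO and 65.7 and 53.7 CPM in HCC44. It was 2.29-fold higher in HCC44 (log2 1.20 ± 0.13, SE, edgeR adjusted p 8.99e-06). For neither gene did the lines overlap.

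HNF4A, the nuclear receptor of liver and gut epithelium, lies on chromosome 20 (44355700 to 44434596, plus strand). It had 8 and 5 counts in H1975 under DMSO and 20 and 10 in HCC44. The scaled ratio was 2.4 in favour of HCC44, with a counting interval of 1.22 to 5.02. In the 8 alternatives that let it be tested, the adjusted p ran from 0.0607 to 0.293, and it was called in none of them. HNF4G, its close relative, was at 0.0621 and 0.0444 CPM in H1975 and at 7.26 and 7.91 CPM in HCC44 (log2 difference 7.11 ± 0.33, SE, edgeR adjusted p 1.41e-08).

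SOX2 (chromosome 3, 181711924 to 181714436, plus strand) had 107 and 63 counts in H1975 under DMSO, or 1.66 and 0.932 CPM, and 3 and 2 counts in HCC44. Its scaled ratio was 32.6, with a counting interval of 13.7 to 102, and the edgeR adjusted p was 7.81e-06. TP63 (chromosome 3, 189631416 to 189897279, plus strand) had 1136 and 793 counts in H1975 under DMSO, or 17.6 and 11.7 CPM, and 3 and 2 counts in HCC44. Its scaled ratio was 370, with a counting interval of 158 to 1140, and the edgeR adjusted p was 2.69e-08. H1975 therefore had TP63 RNA beside NKX2-1 RNA. A table by gene does not tell which TP63 isoform was counted.

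Compared per kilobase of exon, as mean CPM, the order in H1975 under DMSO was NKX2-1 (8.18), FOXA2 (6.73), KLF5 (6.69), GATA6 (6.34), TP63 (1.97), FOXA1 (0.853), SOX2 (0.516), SFTPB (0.0418) and HNF4A (0.0136). FOXA2, KLF5 and GATA6 overlapped between libraries, and their order among themselves is not resolved. In HCC44 under DMSO the order was KLF5 (15.3), FOXA1 (13.9), GATA6 (9.73) and FOXA2 (1.64), and the other 5 members were at or below 0.0325. KLF5 and FOXA1 overlapped there.

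ACBI1 for 96 hours lowered 3 of the 7 tested members in H1975, GATA6, TP63 and KLF5, and raised none. Over all tested genes 31.3% were called, 14.6% higher and 16.7% lower. In HCC44, ACBI1 raised FOXA1 and GATA6 and lowered KLF5, 3 called of 7, where 34.9% of all tested genes were called, 17.5% higher and 17.4% lower. With 7 genes, 3 calls in each line lie near these backgrounds. The median log2 fold change of the tested members was -0.68 in H1975 and 0.66 in HCC44, against -0.01 and 0.01 over all tested genes. The HCC44 median is the fitted value of SOX2, which rests on 5 against 8 counts, and it also takes in NKX2-1, which has too few counts there for a fold.

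**Figure D2:**
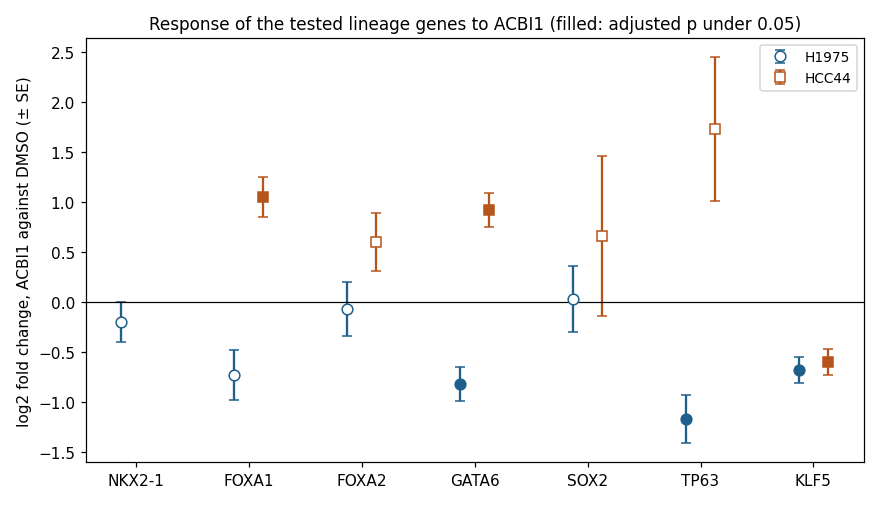
log2 fold change of each tested lineage gene under ACBI1 against DMSO in H1975 (circles) and HCC44 (squares), with bars for the standard error; filled symbols have an adjusted p under 0.05. GATA6 is at -0.82 in H1975 and 0.92 in HCC44, KLF5 is at -0.68 and -0.60, and NKX2-1 has no HCC44 symbol because both of those groups held 3 counts or fewer.

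GATA6 went in opposite directions in the lines. In H1975 it was at 21.9 and 28.1 CPM under DMSO and at 12.9 and 15.5 CPM under ACBI1, a 1.76-fold fall (log2 -0.82 ± 0.17, SE, edgeR adjusted p 0.00556). In HCC44 it was at 37.3 and 39.5 CPM under DMSO and at 60.6 and 84.7 CPM under ACBI1, a 1.89-fold rise (log2 0.92 ± 0.17, SE, edgeR adjusted p 0.00209). Treated and control libraries did not overlap in either line. The difference between the 2 responses was 1.74 ± 0.24 on the log2 scale (SE, edgeR interaction test, adjusted p 0.00132).

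FOXA1 showed the same split, with a weaker side in H1975. In HCC44 it was at 55.8 and 55.1 CPM under DMSO and at 94.4 and 134 CPM under ACBI1, a 2.06-fold rise (log2 1.05 ± 0.20, SE, edgeR adjusted p 0.00397). In H1975 it was at 3.88 and 2.91 CPM under DMSO and at 2.47 and 1.6 CPM under ACBI1. The groups did not overlap, which with 2 libraries each adds no support. The log2 difference was -0.73 ± 0.25 (SE), with an edgeR adjusted p of 0.0532, so FOXA1 was not called. Over 17 alternatives that adjusted p ran from 9.65e-06 to 0.279, and FOXA1 was called lower in H1975 in 6 of them, DESeq2 (0.00881) included. It was -1.05 and called without H1975 ACBI1 replicate 1, -0.43 and not called without ACBI1 replicate 2, and -0.73 and called without HCC44 ACBI1 replicate 1 or 2. The responses of the 2 lines differed by 1.78 ± 0.32 on the log2 scale (SE, edgeR interaction test, adjusted p 0.00656). Of all tested genes, 18.6% had such a called difference, 10.2% in the direction of FOXA1 and GATA6 and 8.4% in the other. Among the members it was called for 3 of 7, all in that direction.

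FOXA2 was at 18.8 and 16.2 CPM under DMSO and at 18.4 and 14.9 CPM under ACBI1 in H1975. Its log2 difference was -0.07 ± 0.27 (SE, edgeR adjusted p 0.879). In HCC44 it was at 3.75 and 4.76 CPM under DMSO and at 4.35 and 8.54 CPM under ACBI1, a log2 difference of 0.60 ± 0.29 (SE, edgeR adjusted p 0.136). The lower treated library lay between the controls, and the other lay above both. Without HCC44 ACBI1 replicate 1 the value was 1.01 and was called (edgeR adjusted p 0.00467), whereas without HCC44 ACBI1 replicate 2 it was 0.03 and was not (0.963, with a range of 0.00467 to 0.963 over 17 alternatives). The FOXA2 response was not called in either line.

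KLF5 fell in both lines. In H1975 it went from 26.4 and 25.7 CPM to 15.8 and 16.7 CPM, a 1.6-fold fall (log2 -0.68 ± 0.13, SE, edgeR adjusted p 0.00279). In HCC44 it went from 65.7 and 53.7 CPM to 43 and 36 CPM, a 1.51-fold fall (log2 -0.60 ± 0.13, SE, edgeR adjusted p 0.00407). No treated library reached a control library of its line. Without HCC44 DMSO replicate 1 the HCC44 value was -0.45 and no longer called (edgeR adjusted p 0.0509, with a range of 2.95e-05 to 0.0509 over 17 alternatives). The 2 responses differed by 0.08 ± 0.18 on the log2 scale (SE, edgeR interaction test, adjusted p 0.815), which does not show that the responses were alike.

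TP63 fell 2.25-fold in H1975, from 17.6 and 11.7 CPM to 7.82 and 5.22 CPM (log2 -1.17 ± 0.24, SE, edgeR adjusted p 0.00451). Every treated library was below every control library. In HCC44 it went from 3 and 2 counts to 8 and 9 counts, a scaled ratio of 3.42 (counting interval 1.21 to 11.8), and the edgeR adjusted p was 0.0875. At 0.135 ± 0.0096 CPM (SD, n = 2) under ACBI1, HCC44 remained far below H1975. The 2 responses differed by 2.90 ± 0.75 on the log2 scale (SE, edgeR interaction test, adjusted p 0.0222). That call rests on a few counts in HCC44: without HCC44 DMSO replicate 1, DMSO replicate 2, ACBI1 replicate 1 or ACBI1 replicate 2 the value was 3.21, 2.64, 2.97 or 2.82 and was not called, with adjusted p values from 0.0567 to 0.0943.

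SOX2 was at 1.66 and 0.932 CPM under DMSO and at 1.54 and 1.1 CPM under ACBI1 in H1975, overlapping ranges, with a log2 difference of 0.03 ± 0.33 (SE, edgeR adjusted p 0.959). In HCC44 its counts were 3 and 2 under DMSO and 4 and 4 under ACBI1, a scaled ratio of 1.61 (counting interval 0.464 to 6.25.) No change of SOX2 was detectable at this depth in HCC44. Whether TP63 and SOX2 responded differently in H1975 was not tested.

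NKX2-1 was at 27.5 and 24.3 CPM under DMSO and at 25.8 and 19.2 CPM under ACBI1 in H1975. The ranges overlapped, and the log2 difference was -0.20 ± 0.20 (SE, edgeR adjusted p 0.478). In HCC44 it had 2 and 0 counts under DMSO and 0 and 1 under ACBI1, too few for a fold. No NKX2-1 response was detectable in HCC44 at this depth. SFTA3 likewise had 312 and 309 counts in H1975 under ACBI1, against 306 and 340 under DMSO, and none in HCC44.

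SFTPB had 5 and 18 counts under DMSO and 5 and 4 under ACBI1 in H1975. Its scaled ratio was 2.82 in favour of DMSO, with a counting interval of 1.26 to 6.94, but H1975 DMSO replicate 1 and ACBI1 replicate 1 had the same count of 5. In the 8 alternatives that let SFTPB be tested in H1975, the adjusted p ran from 0.0929 to 0.425 and it was called in none. In HCC44 it had 2 and 1 counts under DMSO and 2 and 0 under ACBI1, too few for a fold. HNF4A had 20 and 10 counts under DMSO and 3 and 1 under ACBI1 in HCC44, a scaled ratio of 7.46 in favour of DMSO (counting interval 2.63 to 29.1.) It was called lower in most of the 8 alternatives that let it be tested there. Most of these left out 1 library, and the gene could pass their filter only through HCC44 DMSO, where its counts were highest. Calls made under such a filter are therefore no support for a fall of HNF4A. It was also called with no filter, on the same few counts. In H1975 its counts were 8 and 5 under DMSO and 6 and 5 under ACBI1.

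**Figure D3:**
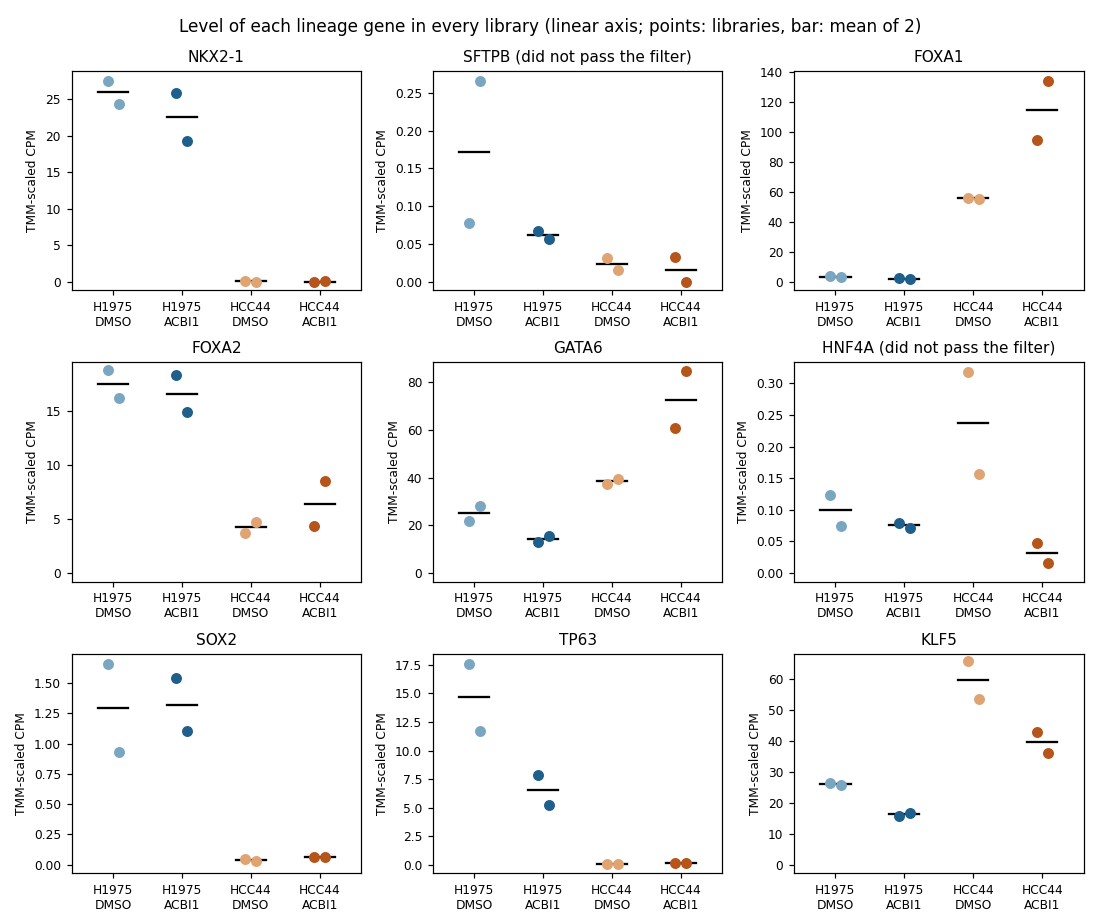
Level of each of the 9 genes in every library, as TMM-scaled CPM on linear axes that differ between panels, with points for libraries and bars for the mean of 2. FOXA1 and GATA6 are highest in the HCC44 ACBI1 libraries, at 94.4 and 134 CPM and at 60.6 and 84.7 CPM, whereas KLF5 is lower under ACBI1 in each line.

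As mean CPM per kilobase of exon, the leading members under ACBI1 were NKX2-1 (7.12), FOXA2 (6.41), KLF5 (4.18) and GATA6 (3.6) in H1975. NKX2-1 and FOXA2 overlapped. In HCC44 the order under ACBI1 became FOXA1 (28.7), GATA6 (18.4), KLF5 (10.1) and FOXA2 (2.48), and no neighbours among these 4 overlapped. KLF5 went from the highest mean in HCC44 under DMSO to the third place under ACBI1.

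Genes that overlap or lie beside the members were read next. TTC6 starts on the opposite strand at FOXA1 and shares 16 exon bases with it. It was at 2.51 and 2.12 CPM under DMSO and at 9.53 and 10.4 CPM under ACBI1 in HCC44 (log2 2.11 ± 0.23, SE, edgeR adjusted p 6.99e-05). In H1975 it was at 0.279 and 0.192 CPM under DMSO and at 0.106 and 0.0565 CPM under ACBI1 (log2 -1.50 ± 0.44, SE, edgeR adjusted p 0.0237). TTC6 thus moved in the same direction as its neighbour FOXA1 in each line, with larger fitted sizes. The H1975 value was not called without DMSO replicate 1 (-1.21) or ACBI1 replicate 2 (-1.11), nor with each line fitted alone (-1.50, adjusted p 0.07).

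GATA6-AS1, antisense to GATA6 with 240 shared exon bases, was at 0.763 and 0.783 CPM under DMSO and at 2.56 and 3.89 CPM under ACBI1 in HCC44 (log2 2.06 ± 0.28, SE, edgeR adjusted p 0.000311). In H1975 it was at 0.388 and 0.325 CPM under DMSO and at 0.346 and 0.353 CPM under ACBI1 (log2 -0.03 ± 0.35, SE, edgeR adjusted p 0.968). It rose with GATA6 in HCC44 and was not called where GATA6 fell. LINC00261, which lies 2363 bases from FOXA2 on the same strand, fell in H1975 from 1.85 and 1.66 CPM to 1.1 and 0.65 CPM (log2 -0.99 ± 0.31, SE, edgeR adjusted p 0.0332), where FOXA2 was not called. SOX2-OT, the long transcript that spans SOX2, rose in H1975 from 0.404 and 0.355 CPM to 0.851 and 0.933 CPM (log2 1.23 ± 0.36, SE, edgeR adjusted p 0.0238), while SOX2 itself was not called. The LINC00261 call was lost without DMSO replicate 1 (-0.92), DMSO replicate 2 (-1.02) or ACBI1 replicate 2 (-0.64) of H1975, and the SOX2-OT call without any 1 of the 4 H1975 libraries (1.19 to 1.33). LINC00261 was also not called under library totals (-0.79, adjusted p 0.0745) or by DESeq2 (-0.96, 0.0676), nor SOX2-OT by DESeq2 (1.27, 0.113). NKX2-1-AS1 had 36 and 27 counts under ACBI1 in H1975 and was not called (edgeR adjusted p 0.456).

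**Figure D4:**
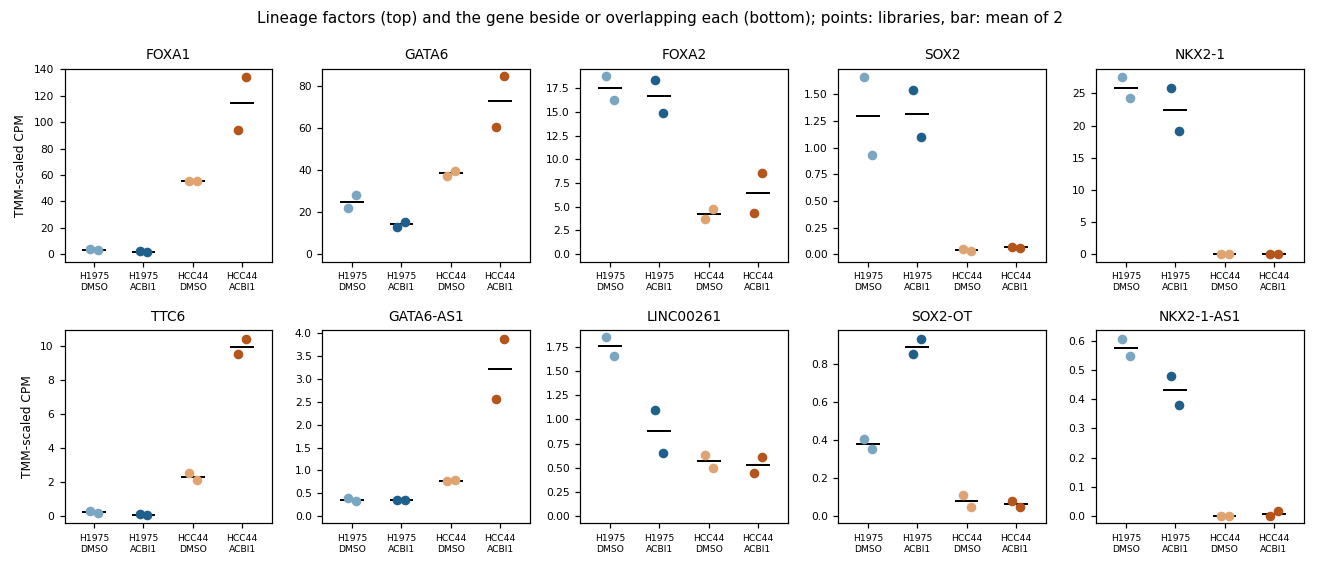
Level of 5 lineage factors (top) and of the gene that overlaps or lies beside each (bottom) in every library, as TMM-scaled CPM on linear axes that differ between panels, with points for libraries and bars for the mean of 2. TTC6 is highest in the HCC44 ACBI1 libraries, at 9.53 and 10.4 CPM, as FOXA1 is at 94.4 and 134 CPM, and SOX2-OT is highest in the H1975 ACBI1 libraries, at 0.851 and 0.933 CPM.

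The wider programmes of these factors were read from 8 lists. The counts under ACBI1 stand against the shares of all tested genes that were called, 14.6% higher and 16.7% lower in H1975 and 17.5% higher and 17.4% lower in HCC44. Of 26 other foregut and airway lineage factors, 19 were tested. In H1975, 2 rose and 6 fell under ACBI1, with a median log2 fold change of -0.19. FOXA3 rose from 0.248 and 0.222 CPM to 2.31 and 2.36 CPM (log2 3.30 ± 0.22, SE, edgeR adjusted p 8.06e-06), the family member of FOXA1 and FOXA2 that H1975 barely had under DMSO. EHF, an epithelial ETS factor, fell by 2.78 and KLF4, a relative of KLF5, fell by 1.43 on the log2 scale. In HCC44, 3 rose and 3 fell, with a median of -0.12. The 3 that rose were SOX21, a SOX factor related to SOX2, by 2.89, ID2 by 2.41 and the epithelial ETS factor ELF3 by 1.26 on the log2 scale. KLF4 was among the 3 that fell in HCC44, by 0.70 (edgeR adjusted p 0.0128). EHF was not called without H1975 DMSO replicate 1 (-1.91) or ACBI1 replicate 2 (-2.06) or with no filter on low counts (-2.78, adjusted p 0.112), nor ELF3 without HCC44 DMSO replicate 2 (1.14) or ACBI1 replicate 2 (0.92). Between the lines, 15 of the 19 were called, 9 higher and 6 lower in HCC44. Of all tested genes 67.9% were called between the lines, 31.6% higher and 36.4% lower. GRHL2, an activator of epithelial genes, was at 49.9 and 42.2 CPM in H1975 under DMSO and at 0.381 and 0.172 CPM in HCC44.

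The alveolar genes, which stand closest to NKX2-1 by role, were mixed. Of 15 alveolar type II genes 7 were tested, and in HCC44 under DMSO 5 were lower and 2 higher than in H1975. Of all tested genes 36.4% were lower and 31.6% higher in that comparison. MUC1, a membrane mucin, was at 41.3 and 30.1 CPM in H1975 and at 2.65 and 3.15 CPM in HCC44, and the protease CTSH was at 35.1 and 37.8 CPM against 3.81 and 3.01 CPM. SLC34A2, a phosphate transporter of type II cells, was higher in HCC44, with 3.37 and 1.85 CPM against 0.0932 and 0.0739 CPM. Under ACBI1, 1 of the 7 rose and 2 fell in H1975, and 2 rose and 1 fell in HCC44. ABCA3, the lipid transporter of lamellar bodies, rose in both lines, by 0.73 in H1975 and 0.95 in HCC44 on the log2 scale (edgeR adjusted p 0.00142 and 0.000226). LPCAT1, an enzyme of surfactant lipid synthesis, fell by 0.81 in H1975 and by 0.55 in HCC44, and NAPSA, an aspartic protease used beside NKX2-1 in pathology, fell by 0.94 in H1975. MUC1 rose by 2.18 in HCC44 on the log2 scale. The NAPSA call was lost without any 1 of the 4 H1975 libraries (-1.08 to -0.77), under library totals (-0.74, adjusted p 0.0734) and by DESeq2 (-0.91, 0.0775), and the LPCAT1 call in HCC44 without DMSO replicate 1 (-0.43).

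Of 12 alveolar type I genes 10 were tested, and 5 rose and 1 fell under ACBI1 in HCC44. Among those that rose were CAV1 (log2 1.40 ± 0.29, SE), RTKN2 (1.98 ± 0.33) and AKAP5 (1.95 ± 0.24). The 1 that fell was PDPN, a membrane glycoprotein of type I cells. It went from 22.2 and 27.7 CPM to 12 and 15.8 CPM (log2 -0.85 ± 0.20, SE, edgeR adjusted p 0.0082). The CAV1 value was 1.40 and not called without H1975 DMSO replicate 1 or 2 or with no filter (adjusted p 0.0864). In H1975, 1 of the 10 rose and none fell. The 1 that rose was SCNN1G, from 1 and 3 counts to 19 and 16. It passed the filter only through the H1975 ACBI1 libraries, so its direction was fixed by passing it. CAV1, the caveola protein, was 36.5 and 44.2 CPM in HCC44 under DMSO against 369 and 401 CPM in H1975. PDPN had no read in H1975 under DMSO, against 22.2 and 27.7 CPM in HCC44. Of 14 airway secretory and ciliated genes 7 were tested, and 3 rose and 1 fell in H1975 and 2 fell in HCC44. Those 2 were the airway mucins MUC5B, from 15.8 and 15.4 CPM to 1.78 and 1.95 CPM, and MUC5AC, from 6.95 and 13.1 CPM to 0.928 and 2.31 CPM. FOXJ1, the factor of ciliated cells, rose by 0.83 and TPPP3 by 1.80 in H1975, while CAPS fell by 0.92. Without H1975 DMSO replicate 1 or ACBI1 replicate 2, FOXJ1 (0.51 and 0.52) and CAPS (-0.71 and -0.70) were not called, and FOXJ1 was 0.83 and not called without HCC44 DMSO replicate 1 or 2 or with each line fitted alone (adjusted p 0.0717).

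Genes of the squamous and basal list lie close to TP63 by role. Of 22 genes 15 were tested. In HCC44 under DMSO 10 were lower and 3 higher than in H1975, where 36.4% of all tested genes were lower and 31.6% higher. The median log2 difference was -2.93 against -0.08 over all tested genes. Some, such as FAT2 with 0 and 1 counts in HCC44 under DMSO, passed the filter only through H1975. Their direction was fixed by passing it, so the count and the median are in part set by the filter. Under ACBI1 in H1975, 7 of the 15 fell and 2 rose, with a median of -1.12 against -0.01 over all tested genes, of which 16.7% fell and 14.6% rose. FAT2, a large cadherin, went from 7.93 and 6.11 CPM to 1.81 and 1.13 CPM, S100A2 from 50.1 and 30.5 CPM to 11.1 and 7.6 CPM and the keratin KRT17 from 11.4 and 13.6 CPM to 3.78 and 2.56 CPM. The 2 that rose were the basal keratin KRT15, from 9.1 and 6.21 CPM to 31.9 and 24.6 CPM (log2 1.88 ± 0.20, SE, edgeR adjusted p 0.000104), and the basal cell receptor NGFR, from 0.171 and 0.133 CPM to 0.771 and 0.622 CPM. Other basal keratins, KRT5 and KRT14, were at or below 0.109 CPM in every library. In HCC44, 1 rose, NGFR, from 0.111 and 0.047 CPM to 0.832 and 0.959 CPM, and 2 fell, with a median of 0.01. NGFR could pass the filter only through ACBI1 libraries, where it was high. Its rise in each line is therefore no result beside the filter. The 2 that fell in HCC44 were KRT17, from 167 and 118 CPM to 34.1 and 21.4 CPM, and TRIM29, from 3.35 and 3.93 CPM to 0.4 and 0.409 CPM.

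Of 26 gastrointestinal and hepatic genes 10 were tested, and 4 fell and none rose under ACBI1 in HCC44, with a median log2 fold change of -0.92 against 0.01 over all tested genes, of which 17.4% fell and 17.5% rose. MUC13 went from 11 and 8.48 CPM to 0.24 and 0.346 CPM, TFF2 from 2.59 and 3.82 CPM to 0.032 and 0.0315 CPM, and SERPINA1 from 12.5 and 9.04 CPM to 1.71 and 1.16 CPM. TFF2 passed the filter only through HCC44 DMSO. Its direction was fixed by passing it, so the count and the median are in part set by the filter. In H1975, 4 fell and 2 rose. The 2 that rose were APOA1, from 2 and 3 counts to 18 and 13, and ALB, from 5 and 5 counts to 20 and 17. Both passed the filter only through H1975 ACBI1 libraries. CTSE, among those that fell, from 26 and 11 counts to 1 and 0, passed it only through DMSO libraries. Their directions in H1975 were fixed by passing it, so these counts for H1975 are in part set by the filter. SERPINA1, the gene of alpha-1-antitrypsin, fell there from 75.4 and 76.6 CPM to 16.4 and 15.8 CPM, AGR2 from 4.49 and 1.95 CPM to 0.306 and 0.325 CPM, and VSIG1 from 1.13 and 1.17 CPM to 0.332 and 0.466 CPM, with VSIG1 not called without DMSO replicate 2 (-1.45) or ACBI1 replicate 1 (-1.27). TFF2 and MUC13 had 0 and 1 counts in H1975 under DMSO. Of 6 neuroendocrine and tuft factors only POU2F3 was tested, and it was called in neither response.

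Of 18 markers of other cell types 11 were tested. In H1975, 2 rose and 3 fell under ACBI1, and in HCC44, 1 rose and 6 fell. Their summed level was 91.2 to 111 CPM in H1975 under DMSO and 59.5 to 63.1 CPM under ACBI1, and 84.9 to 105 CPM in HCC44 under DMSO and 207 to 411 CPM under ACBI1. COL1A1, a collagen that tumour cells can also make, gave most of that rise, from 89.5 and 71.1 CPM to 200 and 403 CPM in HCC44, and in H1975 it went from 68.8 and 44.4 CPM to 28.9 and 22.9 CPM. The other fibroblast and mesenchymal markers were mixed. PDGFRB, a receptor of pericytes and fibroblasts, was at 0.577 to 2.96 CPM over the 8 libraries and rose in H1975 (log2 1.38, edgeR adjusted p 0.00352). COL1A2, the partner chain of COL1A1, was at 2.3 and 3.83 CPM in H1975 under DMSO, where it fell by 3.09 on the log2 scale, and at or below 0.111 CPM in HCC44. DCN had no read in any library and PDGFRA was at or below 0.0636 CPM. CD14 fell by 1.68 in HCC44 and by 0.89 in H1975 (edgeR adjusted p 0.0015 and 0.0411), and CDH5, an endothelial cadherin, fell from 1.86 and 1.41 CPM to 0.128 and 0.157 CPM in HCC44. The CD14 call in H1975 was lost under 8 alternatives, among them library totals (-0.69, adjusted p 0.0941) and leaving out any 1 of the 4 H1975 libraries. COL1A1 was not called in HCC44 with no filter (adjusted p 0.0633), and in H1975 its call was lost under 9 alternatives, with values from -1.36 to -0.78. The higher COL1A1 value of treated HCC44 was in HCC44 ACBI1 replicate 2, the library that also had the higher FOXA1, FOXA2 and GATA6 levels, and its part in those results was not tested. Without that library FOXA1 and GATA6 were still called higher in HCC44, at 0.77 and 0.66 on the log2 scale.

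Genes with the pattern most like a member were named by Pearson's r of log2(CPM + 0.5) over the 8 libraries, among tested genes whose mean was 5 CPM or more. For FOXA1 they were TMEM156 (r = 0.9983) and PTGS2 (0.9981), the latter the gene of cyclooxygenase-2. For GATA6 they were TMEM164 (0.9941) and CXADR (0.9940), for KLF5 MUL1 (0.9981) and FAM120B (0.9958), and for FOXA2 SAPCD2 (0.9894) and RHBDD3 (0.9865). For TP63 they were ATP2C2 and PPP1R14C (both 0.9987), for SOX2 TPSP2 (0.9976) and CCDC162P (0.9953), and for NKX2-1 ZNF738 and ZNF528-AS1 (both 0.9999). The 8 points share 2 lines, so a gene that differs between the lines reaches a high r whatever its response: 1180 of 11657 genes were above 0.95 for NKX2-1 and 922 for FOXA1, but 104 for GATA6.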

How the data were processed

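The authors aligned reads with TopHat2 2.1.1 and counted them per gene with HTSeq 0.11.0 on build hg38, per the submitters' processing notes. The deposited values are raw counts, 1 table per library, covering 61228 gene names. HTSeq's 5 summary lines, 14.3 to 15.8% of a table, stayed out of library sizes and tests. The annotation and the strand setting are not given in the sources used here, so antisense and overlapping genes are uncertain. Per the labels, RNA was purified with RNeasy kits and libraries were made with a NEBNext Ultra II DNA kit.

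Tests used edgeR 4.0.16 in R 4.3.3 on the deposited counts of all 8 libraries: filterByExpr, TMM scaling, robust quasi-likelihood fit, 1 mean per group, 4 residual degrees of freedom. ACBI1 was compared with DMSO in each line, the 2 responses with an interaction contrast, and the 2 lines under DMSO. The p-values were Benjamini-Hochberg adjusted over the 21307 genes tested. The standard error is the absolute log2 fold change divided by the root of the F statistic. The common biological coefficient of variation was 0.123. Between replicates the chi-square per degree of freedom was 24 to 48.4, above sampling noise. Ratios of counts carry exact 95% intervals, and 3 counts were taken as what a count of 0 allows. Exon lengths, positions and neighbours within 10 kb came from GENCODE 29, and promoter letters from RefSeq.

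The members and the lists were chosen with earlier results of these data known. Named genes were the 9 members, from each list the 3 called genes with the largest change in each comparison and 1 CPM or more in a group, and the 2 genes most like each member over the 8 libraries. Neighbour genes, the surfactant genes, SCNN1G, KRT5, KRT14, KRT15, NGFR, APOA1, ALB, CTSE, POU2F3, PTPRC, CD3E, MS4A1, PDGFRA and DCN fall outside this rule and were chosen after their values were seen. Alternatives were other scalings, no or a stricter filter, DESeq2 1.42.0, a non-robust fit, each line alone, a replicate block and leaving out each library.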

Additional observations from a re-analysis of the deposited data

Results flagged for a closer look

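ACBI1 responses that differed between the lines by the interaction term (HCC44 minus H1975, log2 scale, edgeR adjusted p under 0.05) are listed for the members and for the list genes named above. Among the members these were TP63 at 2.90 (adjusted p 0.0222), FOXA1 at 1.78 (0.00656) and GATA6 at 1.74 (0.00132). For GATA6 every library moved down in H1975 and up in HCC44, and the neighbours TTC6 at FOXA1 and GATA6-AS1 at GATA6 also differed (adjusted p 0.000982 and 0.00965). The TP63 value rests on 5 and 17 counts in HCC44, and its call was lost without any 1 of the 4 HCC44 libraries.

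Among the foregut and airway factors the difference was -3.00 for FOXA3, 2.70 for SOX21, 2.28 for ID2 and 1.80 for ELF3. FOXA3 rose in H1975, while the other 3 rose in HCC44. Among the alveolar genes it was 2.25 for AKAP5, 2.04 for MUC1 and 1.72 for CAV1. Among the airway genes it was -3.34 for MUC5B and -1.57 for TPPP3. Among the squamous and basal genes it was 1.49 for S100A2 and, in the other direction, -1.38 for KRT15. Among the gastrointestinal genes it was -7.44 for MUC13, whose H1975 side rests on a few counts, and 3.39 for AGR2. Among markers of other cell types it was 3.04 for COL1A1 and -2.82 for CDH5. Single libraries ended some of these calls. KRT15 was -1.40 without HCC44 DMSO replicate 1 and -1.36 without HCC44 DMSO replicate 2, and not called in either case. S100A2 was 1.21 to 1.60 and not called without H1975 ACBI1 replicate 2, HCC44 DMSO replicate 1 or 2, or HCC44 ACBI1 replicate 1. CAV1 was 1.58 to 1.78 and not called without any 1 of the H1975 libraries or HCC44 DMSO replicate 1. COL1A1 was 2.69 to 3.17 and not called without H1975 DMSO replicate 1, ACBI1 replicate 1 or ACBI1 replicate 2, and ELF3 was 1.68 and not called without HCC44 DMSO replicate 2. With no filter on low counts CAV1 (1.72, adjusted p 0.165) and COL1A1 (3.05, 0.067) were not called.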

How the results depend on the processing

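The 7 tested members gave 427 values over the comparisons and alternatives. Of these, 400 kept direction and call, 12 became called, 6 lost the call and 9 changed sign. NKX2-1 and SFTPB in HCC44, with at most 3 counts per group, were given no fold. Sign changes touched uncalled values only. In H1975, FOXA2 was 0.14 under library totals, 0.04 without H1975 DMSO replicate 1 and 0.10 without ACBI1 replicate 2. SOX2 was -0.28 without H1975 DMSO replicate 2 and -0.19 without ACBI1 replicate 1, and NKX2-1 was 0.02 without ACBI1 replicate 2. Leaving out single libraries, SOX2 reached 0.50 and NKX2-1 -0.39. The KLF5 difference between responses was -0.03 under library totals and -0.05 without HCC44 DMSO replicate 2 or ACBI1 replicate 1, and reached 0.23 without HCC44 DMSO replicate 1. With no filter, 5 of the 7 members were called in HCC44, FOXA2 and TP63 being added, and the cause was not tested.

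Leaving out each library in turn gave 3688 to 7161 called genes for H1975, lowest without ACBI1 replicate 2, and 4342 without DMSO replicate 1. It gave 4947 to 7342 for HCC44, lowest without DMSO replicate 2, 2343 to 4133 for the difference between responses, lowest without HCC44 DMSO replicate 1, and 12941 to 14912 between the lines. Of the 7 tested members, which leave out HNF4A and SFTPB, these ranges were 3 to 4, 2 to 4, 2 to 3 and 6 to 7. A lone library left in a group is assumed to vary like the others.

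Replicate numbers are shared between groups, but no label says what they mark. Deviations of same-numbered libraries correlated at 0.589 in H1975 and 0.205 in HCC44. With the replicate number as a block, 7336, 8031, 4558 and 14818 genes were called for H1975, HCC44, the difference and the lines. Of the member calls, the block added TP63 in HCC44 (log2 1.73, adjusted p 0.0292) and changed no other.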
